A study of Mus musculus with 6 samples.

Results

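Broad H3K4me3 domains of mouse pre-B cells were defined as regions at least 3000 bp wide, and they comprised 490 of the 17979 H3K4me3 regions of the genome (2.73%). Regions were formed by joining the deposited 25 bp bins of H3K4me3 across gaps of up to 100 bp on genome build mm9. These members were chosen by width, so their widths and their reach into genes are given as a description and not as a finding. ChIP-seq, the sequencing of DNA recovered with an antibody to a histone mark or a bound factor, was performed for H3K4me3, H3K27ac and the transcription factor Pax5. Each list came from 1 library of pre-B cells, the 3 matching input samples were not analysed here, and no comparison below has replicates. The cells came from C57BL/6 mice of 6 to 14 wk, males and females together, that were RAG-/- and carried a rearranged IgM transgene (µ+). All 3 libraries share this genotype, and the study's methods describe Rag1-/- mice with a human heavy chain transgene. RAG is the recombinase that assembles antigen receptor genes, so the endogenous light chain loci of these cells stay unrearranged and the heavy chain comes from the transgene. In a cell population, a mark in fewer cells and a weaker mark in each cell cannot be told apart.

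H3K4me3, trimethylated lysine of histone H3, marks the starts of active or poised genes, usually as a narrow block around the start. Very wide H3K4me3 blocks are known from many cell types at genes that set the identity of the cell and at other heavily regulated genes. H3K27ac, acetylated lysine of the same histone, marks active promoters and enhancers, and Pax5 is the transcription factor that commits progenitors to the B lineage.

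The 3 widest regions at a single protein-coding gene lay at Pax5, at Tnrc18, a chromatin protein gene, and at Brd2, which encodes a reader of acetylated histones. The 250 bases before the start of each gene are shown because H3K4me3 is deposited mainly at CpG-rich starts and these starts differ in CpG number. Each sequence is from mm9, is written 5′ to 3′ on the minus strand, along which all 3 genes are transcribed, and has each CG in capitals. The Pax5 stretch (chr4:44724319-44724568) held 8 CG, the Tnrc18 stretch (chr5:143579342-143579591) 20 and the Brd2 stretch (chr17:34259263-34259512) 25.
Pax5: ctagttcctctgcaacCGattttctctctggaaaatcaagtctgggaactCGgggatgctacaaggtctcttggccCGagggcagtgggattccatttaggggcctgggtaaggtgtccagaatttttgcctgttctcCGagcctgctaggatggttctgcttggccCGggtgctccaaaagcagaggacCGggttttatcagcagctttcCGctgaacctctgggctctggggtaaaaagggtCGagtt
Tnrc18: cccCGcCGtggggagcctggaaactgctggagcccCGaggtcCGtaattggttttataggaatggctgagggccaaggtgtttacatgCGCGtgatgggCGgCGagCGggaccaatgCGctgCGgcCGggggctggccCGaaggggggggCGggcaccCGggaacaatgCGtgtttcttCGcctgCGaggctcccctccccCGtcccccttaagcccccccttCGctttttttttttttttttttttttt
Brd2: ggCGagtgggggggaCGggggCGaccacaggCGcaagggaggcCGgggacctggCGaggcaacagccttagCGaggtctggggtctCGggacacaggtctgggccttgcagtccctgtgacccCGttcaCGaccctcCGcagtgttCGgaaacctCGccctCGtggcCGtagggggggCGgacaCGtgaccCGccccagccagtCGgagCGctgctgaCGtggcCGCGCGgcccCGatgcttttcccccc
The widest region of all was thus at a start with the fewest CG of these 3.

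Pax5 peaks inside broad regions were compared with a motif as well. The letters GCNTGAC, the core of the sequence that Pax5 recognises, were searched on both strands (GTCANGC on the other) in the central 300 bp of each peak. The 3 highest-scoring Pax5 peaks in broad regions that held the letters are shown on the plus strand with the match in capitals. They lay at the shared start of Mll5 and 5031425E22Rik (chr5:22940049-22940149, peak score 1428), at Foxo3 (chr10:41997164-41997264, peak score 1402) and at Alcam (chr16:52453409-52453437, peak score 1384). The Alcam stretch is short because it overlaps an exon.
Mll5 and 5031425E22Rik: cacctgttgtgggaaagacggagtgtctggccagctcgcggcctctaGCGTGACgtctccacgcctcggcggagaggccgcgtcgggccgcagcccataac
Foxo3: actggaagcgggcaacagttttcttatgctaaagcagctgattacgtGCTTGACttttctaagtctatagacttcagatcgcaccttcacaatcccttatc
Alcam: gagagtaggggGCGTGACgggctggattc
Such letters were found in 74 of the 600 Pax5 peaks in broad regions (12.3%), in 994 of 7009 in narrower regions at protein-coding starts (14.2%) and in 1778 of 7836 elsewhere (22.7%). By comparison, 10.3% of the 22238 promoters of protein-coding genes, taken as 300 bases around the start, held them. The 12.3% has a 95% Wilson interval of 9.94 to 15.2%, which covers counting error only, as do all intervals here. A match is a description of the letters and not evidence of a bound site.

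Broad regions had a median width of 3525 bp, against 1025 bp for all regions, and held 9.37% of the length under H3K4me3 (1.86 Mb). Many were only just broad, with 230 of the 490 under 3500 bp, while 147 reached 4000 bp, 34 reached 5000 bp and 11 reached 6000 bp. Just inside the threshold, at 3000 bp, were Zfp687, Sertad3, Fam65a, 1190002N15Rik and a region without an annotated start on chromosome 19. Just outside it, at 2975 bp, were Rev3l, Stk11, Baz2a, Ep300 and the shared start of Map3k12 and Tarbp2. A set of 13 regions measured exactly 3000 bp and 16 were 1 bin narrower, so the class has no natural edge. No gap was bridged in 269 of the 490. The share of regions that were broad ran from 1.49% on chromosome X (8 of 537) to 3.82% on chromosome 19 (25 of 654), leaving aside chromosome Y with its 2 regions.

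The widest region, 9700 bp at Pax5 itself (chr4:44717636-44727335), ran from 3017 bp upstream of the start to 6683 bp downstream, within intron 1. H3K27ac peaks covered 78.1% of it and it overlapped 3 Pax5 peaks, the highest with a score of 469. Another H3K4me3 region of the gene, kept separate by the 100 bp joining gap, followed from 6857 to 9657 bp downstream of the start. The second widest region, 9200 bp at Tnrc18, lay mostly upstream (5829 bp) and carried 2 Pax5 peaks and 78.1% H3K27ac. The third, 8300 bp (chr12:114661636-114669935), spanned the heavy chain J segments and the annotated start of Ighm, the µ constant region gene, and was 98.8% under H3K27ac with 4 Pax5 peaks. The mice carry an IgM transgene, and reads of it that align to this locus cannot be told apart from those of the endogenous gene. A region of 6425 bp over the kappa light chain segments Igkj1 to Igkj5 (chr6:70668771-70675195) was covered by H3K27ac along its whole length and held 1 Pax5 peak, of score 103. The heavy chain and kappa J clusters, targets of recombination, were therefore among the 6 widest regions.

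The other regions among the 20 widest lay at genes of varied function. Bcl11a, a lymphoid zinc finger factor, shared 7050 bp with A830031A19Rik, and H3K27ac covered 66.2% of that. Brd2 had 6825 bp, with 76.1% H3K27ac and 3 Pax5 peaks. Zfp516 and Pde4b, the second a phosphodiesterase that degrades cyclic AMP, each had 6275 bp, and the Pde4b region lay at an internal start, was fully under H3K27ac and had no Pax5 peak. Tgif1, a homeobox repressor, had 6250 bp and Irf2bp2, a corepressor, 6175 bp. Next in width were a region without an annotated start inside Il16 and Stard5 (6000 bp), Vars with D17H6S56E-5 (5950 bp), the antiproliferative gene Btg1 (5925 bp) and the H3K4 methyltransferase gene Setd1b (5875 bp, no Pax5 peak). Malat1, a long noncoding RNA, had 5850 bp, Plekha2 5775 bp, Smad7, an inhibitor of TGF-beta signalling, 5625 bp, Blnk 5600 bp, Marcks with 5930403N24Rik 5500 bp, and Dusp6, a MAP kinase phosphatase, and Rhoh, a haematopoietic GTPase gene, 5350 bp each.

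**Figure D1:**
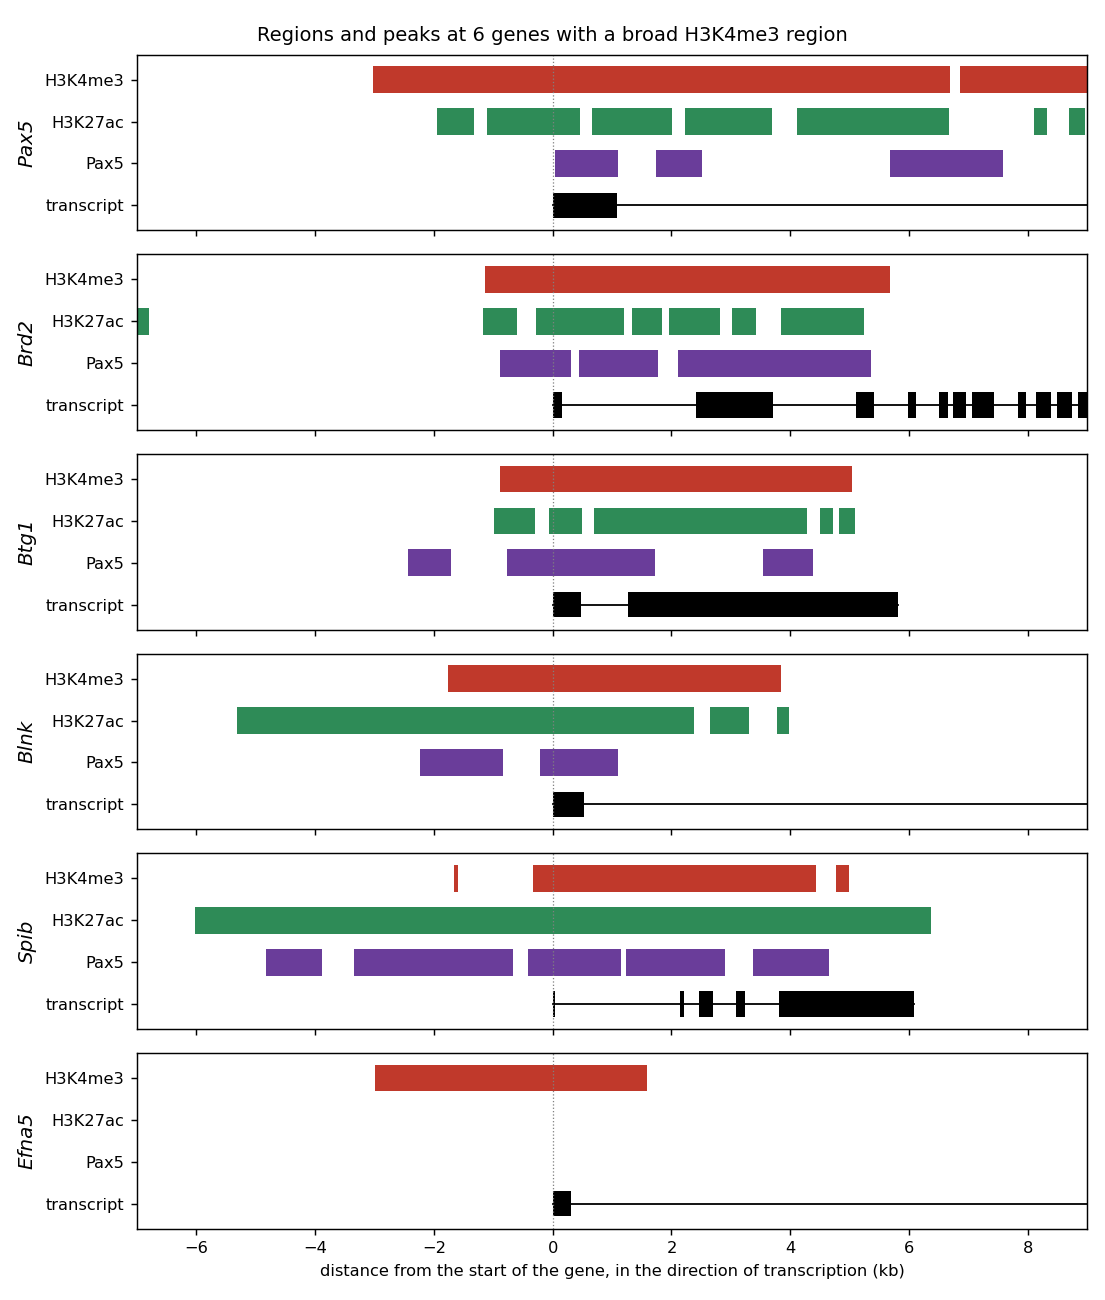
H3K4me3 regions, H3K27ac peaks, Pax5 peaks and the exons of the transcript used at 6 genes, drawn to scale against the distance from the start in kb, with transcription to the right. The Pax5, Brd2 and Btg1 regions run far downstream of the start, Spib lies within 1 H3K27ac peak, and Efna5 has neither H3K27ac nor Pax5 peaks.

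Of the 490 broad regions, 450 had a protein-coding start within 1000 bp (91.8%, interval 89.1 to 93.9%). Among all regions this share was 65.0%. Of the 450, 374 served the starts of 1 gene, 74 of 2 genes and 2 of 3 genes. The remaining 40 comprised 11 regions at another kind of annotated start and 29 at none. Among the 11 were the immunoglobulin regions above, a 4475 bp region at Gfi1, a repressor that this annotation does not class as protein-coding, and one of 4200 bp at Mir142, the gene of a blood cell microRNA. Dleu2 had 4025 bp and Neat1 3075 bp. Of the 29, 13 lay inside a protein-coding gene and 16 outside, and 15 of those 16 overlapped H3K27ac. The exception (chr17:39979877-39983551) had neither an H3K27ac nor a Pax5 peak.

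At the level of genes, 525 of 22238 protein-coding genes had a broad region within 1000 bp of a start, that is 2.36%, or 4.48% of the 11722 genes with any H3K4me3 region. Gene lists were read against these shares. No test was made, since lists of active genes differ from the genome in many ways.

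Transcription factors of the B lineage were often broad. Of the 41 on the list, 24 had a broad region (58.5%), 17 had a narrower one and none lacked a region, with a median widest region of 3500 bp. Gfi1, whose broad region is given above, is not counted among them because it was not matched to a protein-coding gene. The factors that specify and commit B cell progenitors were among them. Ebf1 had 4325 bp with 90.4% H3K27ac and 2 Pax5 peaks, and Tcf3, the gene of E2A, had 3850 bp with 82.1% H3K27ac. Foxo1, which drives recombinase expression, had 4275 bp and 2 Pax5 peaks but only 34.5% H3K27ac. Ikzf1, the gene of Ikaros, had 4250 bp and reached 4390 bp downstream of the start. Spib, an Ets factor, had 4775 bp that lay wholly under H3K27ac and held 3 Pax5 peaks.

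Bach2, a repressor that guards the pre-B cell checkpoint, had 4350 bp, Sox4 4375 bp and Myb 4200 bp. Erg, another Ets factor, had 3925 bp fully under H3K27ac, while Fli1 had 3575 bp. Foxp1 and Tcf4 each had 2 broad regions at separate starts, of 3525 and 3300 bp and of 3350 and 3125 bp. Lef1 (3825 bp, 48.8% H3K27ac), Pou2af1 (3500 bp, 86.6%), Klf2 (3675 bp, 72.3%), Bcl6 (3250 bp, 77.1%) and Irf2 (3800 bp, 63.7%) each overlapped 1 Pax5 peak. Zfp521 was the least acetylated of the broad members, with 17.3% of 3500 bp. The other broad members were Bcl7a, Cux1, Mef2d and Pou2f1. Several well-known B cell factors were narrower, with Ikzf3, the gene of Aiolos, at 2875 bp, Ets1 at 2850 bp, Runx1 at 2400 bp, Irf4 at 2500 bp and Sfpi1, the gene of PU.1, at 1850 bp.

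Genes of the pre-B cell receptor and B cell surface were broad in 7 of 38 cases (18.4%). Both signalling chains of the receptor were included, Cd79a with 4000 bp (94.98% H3K27ac) and Cd79b with 4075 bp (76.6%). The kinase gene Sykb had 5175 bp, fully under H3K27ac with 2 Pax5 peaks, and its substrate Blnk had 5600 bp with 86.9% H3K27ac and 2 Pax5 peaks. Cxcr4, the chemokine receptor that keeps progenitors in the marrow, had 4675 bp, Cd24a 4625 bp and Cd38 4050 bp without a Pax5 peak. Cd22, by contrast, had 1575 bp. Igll1, Vpreb1 and Vpreb2, which encode the surrogate light chain, had no region within 1000 bp of their annotated starts, as was true of Ms4a1, Cr2 and Fcer2a.

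Of 13 genes of V(D)J recombination and end joining, Rag1 and Hmgb1 were broad. The Rag1 region, shared with B230118H07Rik, measured 4700 bp with 29.1% H3K27ac and 2 Pax5 peaks, in mice whose RAG-/- genotype, if the allele is that of Rag1, removes part of this gene. Rag2 had 1700 bp.

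Cell cycle and survival genes were broad in 14 of 26 cases (53.8%), with a median widest region of 3262.5 bp. They included both Myc (4475 bp, 78.0% H3K27ac, 1 Pax5 peak) and Mycn (4475 bp, 24.0% H3K27ac, 3 Pax5 peaks), equal in width and unlike in acetylation. The survival genes Mcl1 (3200 bp) and Bcl2l1 (4250 bp) and the death gene Bcl2l11 (3450 bp) were broad, whereas Bcl2 had 1650 bp. Ccnd3, the cyclin needed by pre-B cells, had 3325 bp and its partner gene Cdk6 4400 bp, and the inhibitor genes Cdkn1b and Cdkn2c had 3675 and 3600 bp. Ccnd2 had 2075 bp. Btg1, Btg2, E2f2, Pim1 and Trp53 completed the group.

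In the IL-7 receptor and NF-kB list 5 of 24 genes were broad (20.8%). They were Il7r (3175 bp, fully under H3K27ac) and 4 genes whose products damp signalling or modulate NF-kB, namely Socs1 (3800 bp), Socs2 (3850 bp), Nfkbie (3075 bp) and Nfkbiz (3400 bp). Chromatin regulators were broad in 10 of 34 cases (29.4%), among them the H3K4 methyltransferase genes Mll1, Mll2, Mll3 and Setd1b, the remodelling subunits Arid1a and Arid1b, and Ctcf, Ncor1, Mll5 and Brd2.

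Housekeeping genes had 4 broad members of 20 (Actb, Actg1, B2m and Ywhaz), and ribosomal protein genes 1 of 79, Rpl7, which shares its region with Rdh10. Replication-dependent histone genes had 6 of 67, from only 2 regions, each shared by 3 genes (Hist1h3h, Hist1h2bl and Hist1h2ai, and Hist2h2ab, Hist2h2be and Hist2h2ac).

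Markers of other cell types were set beside the label. None of 18 T cell, 17 myeloid or 8 erythroid markers and none of 18 markers of other tissues had a broad region, and of 10 stem cell markers only Meis1 did (3150 bp). Over all protein-coding genes the broad share was 2.36%, so lists of this size would hold few broad genes in any case. No region at all was found at 13 T cell, 8 myeloid, 4 erythroid, 4 stem cell and 18 other tissue markers, Cd3e, Cd4, Mpo and Gata1 among them. Of all 22238 protein-coding genes, 10516 had none. Narrower regions lay at 5 T cell, 9 myeloid, 4 erythroid and 5 stem cell markers, Itgam, Csf1r, Klf1, Kit and Flt3 among them. Gata3 had 2975 bp, 1 bin below the threshold. Of the B lineage markers, Cd79a, Cd79b, Ebf1 and Pax5 were broad, while the surrogate light chain genes had no region. Some markers of other blood cells had narrower regions, and width was itself the rule that chose the broad regions. Housekeeping genes were broad in 4 of 20 cases, so breadth at these B lineage genes does not by itself check the label.

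**Figure D2:**
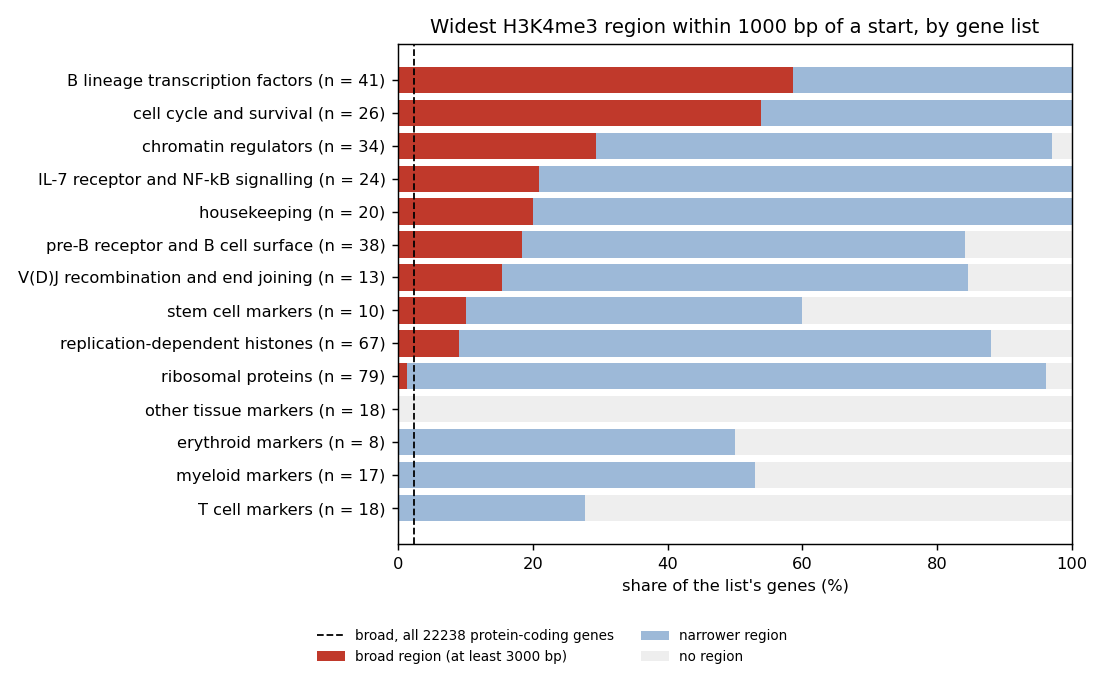
Share of the genes of 14 lists whose widest H3K4me3 region within 1000 bp of a start was broad, narrower or absent, in percent, with the broad share of all 22238 protein-coding genes (2.36%) as a dashed line. The bars of B lineage transcription factors (58.5%) and of cell cycle and survival genes (53.8%) are the longest in red, and T cell, myeloid, erythroid and other tissue markers have none.

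The extension into gene bodies was described at the 374 broad regions with the starts of 1 protein-coding gene, beside 9983 narrower regions of that kind. Broad regions reached a median of 2600.5 bp downstream of the most upstream start in the region (quartiles 2087 and 3136 bp) and 1064.5 bp upstream. Narrower regions reached 871 and 403 bp. Broad regions were therefore longer on both sides, and the downstream side took 70.1% of their summed length, against 67.3% in narrower ones. Most of the length was downstream in 321 of 374 broad regions (85.8%) and in 84.0% of narrower regions. With the most downstream start of the gene in place of the most upstream, the broad share was 63.6%, so the value depends on which start a gene uses. The far edge lay at least 2000 bp past the start in 296 broad regions (79.1%) and at least 3000 bp past it in 120, which in short genes is beyond the gene's end.

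Intron 1 was entered by 363 of 365 broad regions at genes with more than 1 exon, exon 2 was reached by 115 (31.5%) and exon 3 by 33 (9.04%). For narrower regions these last shares were 16.8% and 3.50%. A median of 33.9% of intron 1 was covered, against 11.04% in narrower regions and 15.96% in those of 2000 to 3000 bp, the class just below the broad one. Intron 1 had a median length of 5927 bp at the broad genes, 3842 bp at all narrower ones and 6687 bp in the class just below. Genes with a broad region had a median length of 38093 bp, against 26224 bp. Compared with regions of 2000 to 3000 bp, whose genes had a median length of 36849.5 bp, this difference was small.

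The farthest reach downstream was that of Pax5 (6683 bp), followed by Tgif1 (5860 bp), Brd2 (5686 bp), Btg1 (5043 bp), Zeb2 (4926 bp), Jarid2 (4842 bp), Zfp516 and Pde4b (4736 bp each), C1galt1 (4704 bp) and Ppp1r15b (4701 bp). In short genes such a region took in most of the gene, 86.8% of Btg1, 62.7% of Tgif1 and 55.2% of Brd2, whereas in Pax5 it took 3.71%. The entire gene was marked in 7 cases, Ier2, Cd79b, Hspa2, Pcbp1, Socs1, Klf2 and Gadd45g, which were named after their values were seen. These 7 genes were between 1522 and 3422 bp long, shorter than the median region.

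CpG content was taken from the sequence and was not used to choose the regions. In the 500 bp on either side of the start, broad regions had a median GC content of 63.9% and a median CpG observed-to-expected ratio of 0.809, against 59.2% and 0.730 in narrower regions. Regions of 2000 to 3000 bp had 64.4% and 0.833, slightly more than broad ones. Between 1000 and 3000 bp downstream, however, broad regions had a median of 42 CG, those of 2000 to 3000 bp 26 and all narrower ones 23. The GC content there was 49.7%, 44.3% and 45.2%. CpG at the start was thus alike in the 2 wider classes, and CpG beyond 1000 bp was higher in the broad one.

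H3K27ac was read from its own library. The median broad region had 75.6% of its length under H3K27ac peaks (quartiles 59.0 and 87.9%), and 403 of 490 had at least 50% (82.2%, interval 78.6 to 85.4%). Of all H3K4me3 regions 64.2% passed that mark, and of narrower regions at protein-coding starts 60.5%. The share was higher the wider the region, from 39.6% under 1000 bp through 67.4% at 1000 to 2000 bp and 75.5% at 2000 to 3000 bp to 81.1% in the 450 broad regions at protein-coding starts. H3K27ac was entirely missing in 4 broad regions (0.816%) and in 19.5% of narrower regions at starts. The 40 broad regions without a protein-coding start had a median of 87.3%, and 38 of them passed 50%. H3K27ac covered 27 broad regions in full and ran past both edges in 166 (33.9%).

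A minority of broad regions had little or none of the mark. Of 14 with under 20% H3K27ac, 13 were at protein-coding starts. Efna5, an ephrin gene, had 4575 bp of H3K4me3 with no H3K27ac and no Pax5 peak. Lphn2, a latrophilin receptor gene (3875 bp), and Igf1r, the insulin-like growth factor receptor gene (3600 bp), had no H3K27ac and 1 Pax5 peak each. Zswim6 had 6.16% and Tle1, a corepressor gene, 7.64%.

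**Figure D3:**
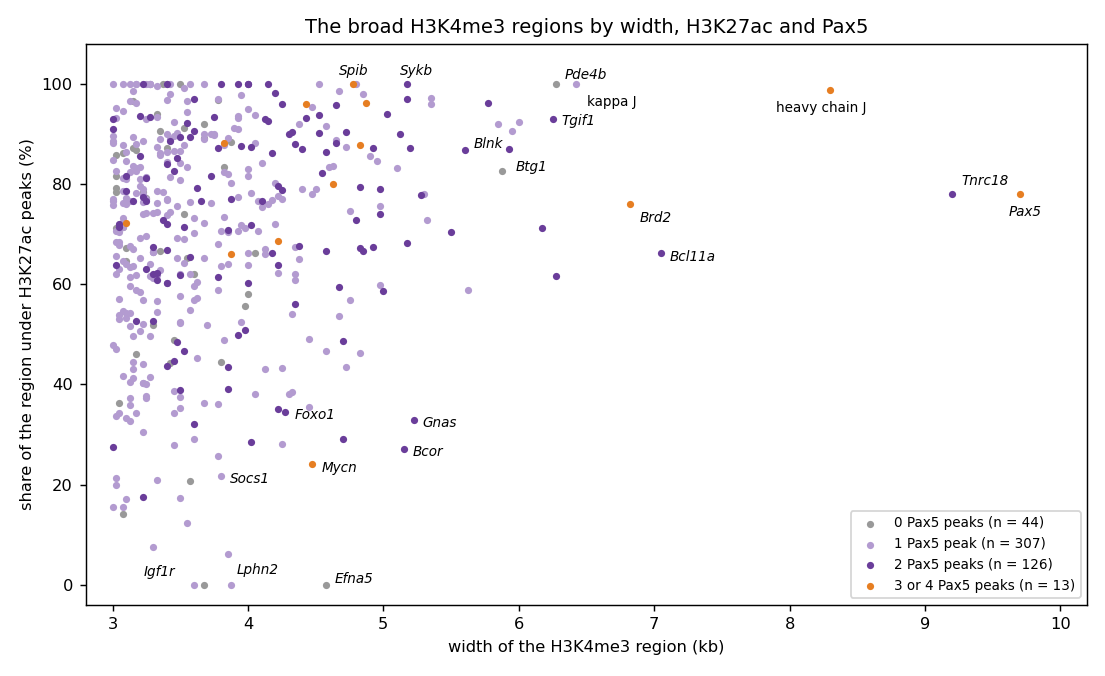
Width of each of the 490 broad regions in kb against the share of it under H3K27ac peaks in percent, coloured by the number of Pax5 peaks it overlaps, 1 point per region. Most points lie between 3 and 5 kb and above 50%, the 4 regions at 0% include Efna5, Lphn2 and Igf1r, and Pax5 is the widest.

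Wider regions offer more room for a peak, so equal windows were compared at regions with the starts of 1 gene. In the 500 bp on either side of the start, H3K27ac covered at least 50% in 56.7% of broad regions, in 50% of regions of 2000 to 3000 bp, in 56.6% of those of 1000 to 2000 bp, in 31.3% of those under 1000 bp and in 47.7% of all narrower ones. Broad regions exceeded those of 2000 to 3000 bp by 6.68 percentage points (95% Newcombe interval 0.963 to 12.3), but their Wilson interval (51.6 to 61.6%) spanned that of regions of 1000 to 2000 bp (55.3 to 57.9%). Near the start, coverage thus showed no steady order with width. From 1000 to 3000 bp downstream the shares were 61.0% in broad regions (228 of 374), 24.8% at 2000 to 3000 bp and 9.59% in all narrower ones. Broad regions exceeded those of 2000 to 3000 bp there by 36.2 points (interval 30.6 to 41.5), and their median coverage was 64.7% against 22.7%. This window is not independent of the width rule. At 2125 bp downstream the H3K4me3 region itself covered 72.4% of bases in broad regions and 10.7% at 2000 to 3000 bp. The excess there is therefore a description and not a finding apart from width. In the window 1000 to 3000 bp upstream the shares were 24.9% in broad regions, 9.32% at 2000 to 3000 bp and 5.94% in all narrower ones. That window is tied to the width rule as well. At 1125 bp upstream the H3K4me3 region itself covered 45.8% of bases in broad regions and 18.5% at 2000 to 3000 bp, so the upstream excess is also a description. Below 2000 bp in width neither window showed an increase with width, with 7.62% downstream and 6.52% upstream under 1000 bp and 6.97% and 4.77% at 1000 to 2000 bp.

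**Figure D4:**
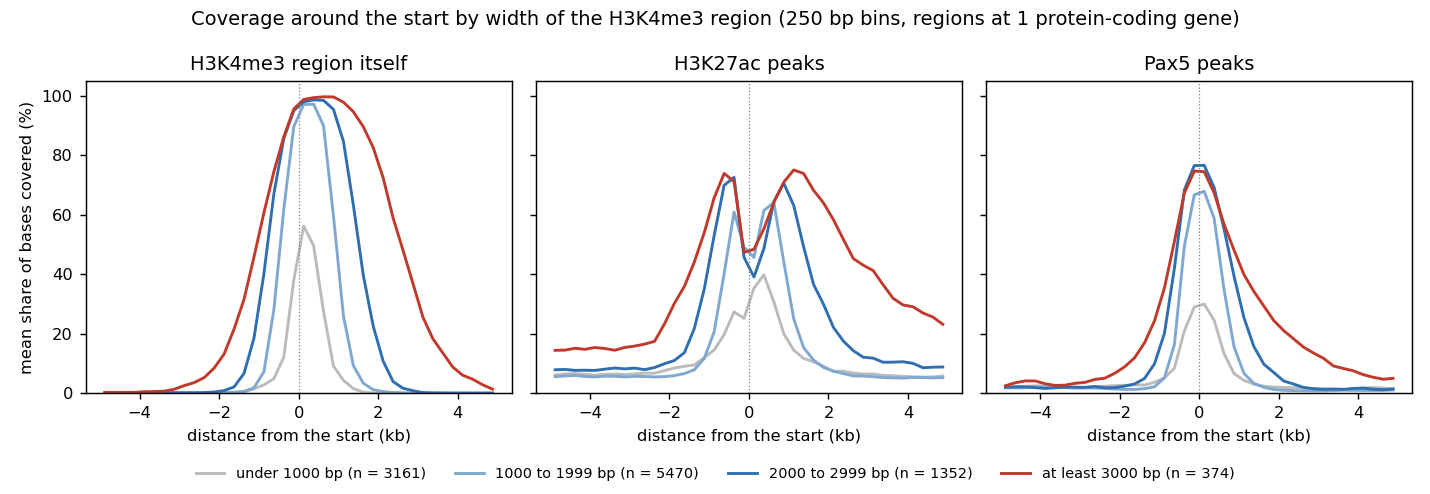
Mean share of bases under the H3K4me3 region itself, under H3K27ac peaks and under Pax5 peaks, in percent, by distance from the start in kb (250 bp bins), for regions at 1 protein-coding gene in 4 width classes. In the bin just past the start Pax5 covers 74.5% in broad regions and 76.6% at 2000 to 3000 bp, while at 2125 bp H3K27ac covers 58.3% and 22.1%.

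Pax5 peaks overlapped 446 of the 490 broad regions (91.0%, interval 88.2 to 93.2%), with overlap meaning at least 1 bp. Of all regions 52.9% had a Pax5 peak, and of narrower regions at protein-coding starts 62.4%. By width the share was 30.5% under 1000 bp, 72.4% at 1000 to 2000 bp, 87.8% at 2000 to 3000 bp and 91.1% in broad regions at protein-coding starts. Broad regions overlapped 1 peak in 307 cases, 2 in 126, 3 in 11 and 4 in 2, and none in 44. Narrower regions overlapped 1 in 6820 cases, 2 in 192 and never 3. At least 2 peaks were thus seen in 28.4% of broad regions, 7.39% of those of 2000 to 3000 bp at starts and 1.71% of all narrower ones.

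Per region the mean was 1.22 peaks in broad regions, 0.952 at 2000 to 3000 bp and 0.641 in all narrower regions, but per kb it was 0.323, 0.408 and 0.489. The share of the length under Pax5 peaks was 49.2% in broad regions, 54.8% at 2000 to 3000 bp and 50.3% in all narrower ones. In number, then, broad regions held more Pax5 peaks, and for their length they did not. Both counts are tied to width, since an overlap of 1 bp counts a peak, and are given as a description. The median score of peaks in broad regions was 351, against 318 at 2000 to 3000 bp and 254 in all narrower ones, in the units of the peak caller. The peaks in broad regions were also wider, with a median of 1463.5 against 1114 bp.

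Near the start, Pax5 was about as frequent in the class below. Within 1000 bp of the start a Pax5 peak was found at 85.6% of broad regions (320 of 374), 85.4% of those of 2000 to 3000 bp and 62.0% of all narrower ones. The first 2 differed by 0.206 points (interval -4.10 to 3.97). Between 1000 and 3000 bp downstream the shares were 58.3%, 34.9% and 13.3%, and the first 2 differed by 23.4 points (interval 17.7 to 28.9). As for H3K27ac, the width rule places this window largely inside broad regions and largely outside narrower ones, so the difference is a description. The midpoints of the 456 peaks in these broad regions lay a median of 253.5 bp downstream of the start, 305 within 1000 bp (66.9%), 129 farther downstream (28.3%) and 22 farther upstream (4.82%).

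**Figure D5:**
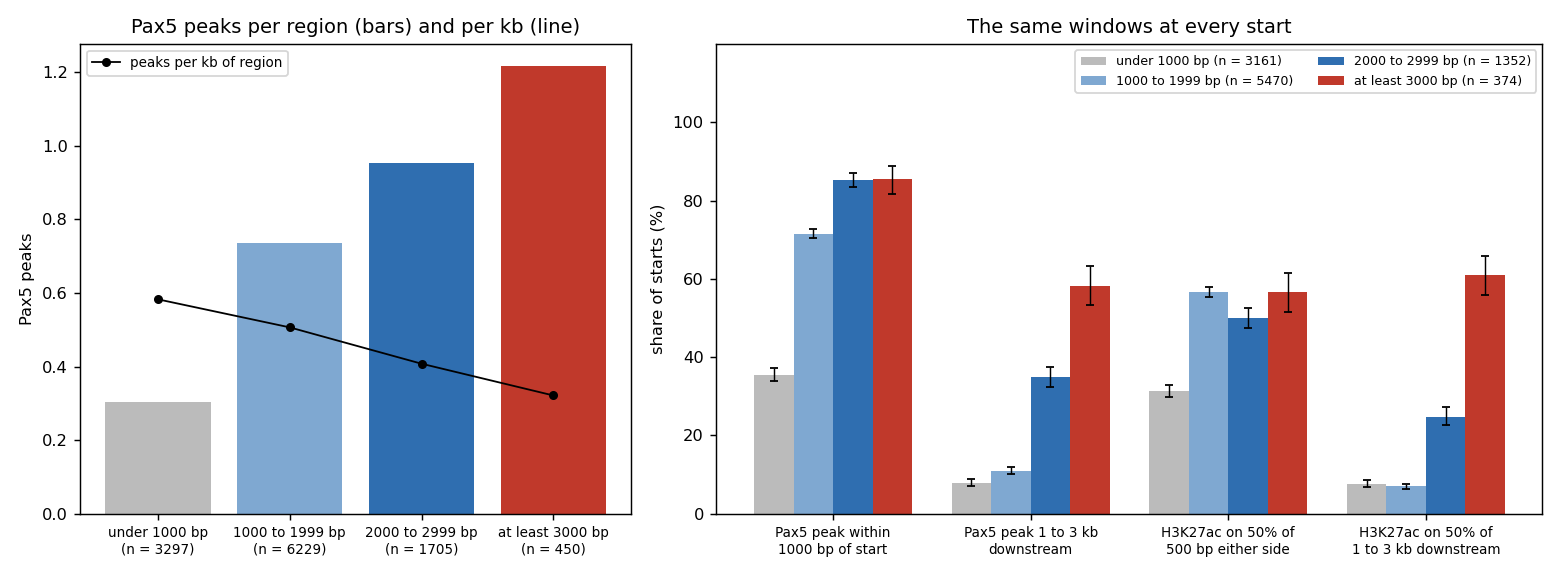
Left, mean number of Pax5 peaks per H3K4me3 region (bars) and peaks per kb of region (line) at protein-coding starts in 4 width classes. Right, share of starts in percent with a Pax5 peak or with at least 50% H3K27ac coverage in the same windows, with 95% Wilson intervals as error bars for counting error only. Bars near the start are about level between the 2 widest classes for Pax5 (85.6 and 85.4%), and those downstream rise to 58.3% and 61.0% in broad regions.

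The most Pax5 peaks, 4, were found at the heavy chain J region and at a region on chromosome 15 without an annotated start (chr15:67005230-67009654), which was 96.0% under H3K27ac. Of the 11 regions with 3 peaks, the 8 widest lay at Pax5, Brd2, Spib, Mycn, Tifa, an adaptor gene of NF-kB signalling, Zfpm1, a GATA cofactor gene, Cecr2, a chromatin remodelling gene, and the shared region of Ncln and S1pr4. The highest peak score at any of these 8 was 1712, at Zfpm1, and the lowest maximum, 150, was at Mycn.

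Broad regions held 600 of the 15445 Pax5 peaks (3.88%) and 7 of the 100 with the highest scores. The highest was at Jun, of the AP-1 family, with a score of 3100 (rank 3 of 15445), followed by Ywhaz (2428), Jund (2254), Ptma (2036) and Ccng2 (2008), of which all but Ywhaz were named after their values were seen. Among the 600 peaks, 593 overlapped H3K27ac (98.8%, interval 97.6 to 99.4%), against 91.6% of the 7014 in narrower regions at starts. Overlap depends on peak width, and the median width was 1463.5 bp in broad regions against 1114 bp, so these shares are a description.

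The 44 broad regions without a Pax5 peak included Pde4b, Setd1b, Cd38, Efna5 and 1 of the 2 at Foxp1. Most of the 44 carried H3K27ac, but Efna5 and the region at chr17:39979877-39983551 had none. The median H3K27ac coverage of the 44 was 77.9%, beside 73.5% with 1 peak and 78.1% with 2 or more. At least 50% coverage was reached in 79.5% (interval 65.5 to 88.8%), 80.8% and 86.3%. In narrower regions at starts the same shares were 44.4%, 70.1% and 71.4%, but these groups also differed in median width, at 925, 1500 and 2200 bp. H3K27ac coverage was higher in wider regions, so the lower share without Pax5 cannot be told apart from a difference in width, which was not tested.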

How the data were processed

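ChIP-seq lists of H3K27ac, H3K4me3 and Pax5 from pre-B cells were used, 1 library each. The submitters' processing notes name Bowtie 0.12.9, MACS 1.4.2 and mm9. The study's methods describe duplicate removal and alignment allowing reads with several best positions, and the settings of the peak calls for these lists are not given in the sources used here. The H3K27ac and Pax5 lists hold a score per peak as deposited, written by the authors' peak caller, which was used only within a list. The H3K4me3 list deposited by the authors holds other content, 25 bp bins without a score, so wide and weak regions cannot be told from wide and strong ones. Library depth is unknown, and intervals (Wilson for shares, Newcombe for differences, 95%) cover counting error over regions only. Regions are not replicates and no test between conditions was possible.

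Bins were joined across gaps of up to 100 bp, and regions of at least 3000 bp were called broad. Genes, starts and exons came from GENCODE M1 on NCBIM37, which is mm9, and entries of the same name that lay close together were counted as 1 gene. Symbols were matched with the help of RefSeq synonyms. A region belonged to a gene with a start within 1000 bp. Reach was measured from the most upstream start in or near the region, for regions with 1 protein-coding gene. Coverage was the share of bases under peaks. Scripts ran in Python 3.11.15 with numpy 2.4.6, while scipy 1.17.1 gave the intervals and matplotlib 3.10.9 the plots. The joining and counting were tested on simulated data. Promoter and peak sequences were read from the mm9 genome.

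The regions and the 14 gene lists were chosen with earlier results of these data known. Named genes are those of the 20 widest regions, of 5 regions on each side of the threshold, of the 10 regions with most Pax5 peaks or the farthest reach, of the 5 with least H3K27ac at protein-coding starts, broad members of the lists, and the peaks whose sequences are shown. Other genes, namely narrower or unmarked list members, genes of noncoding starts, genes marked along their whole length and those with the highest Pax5 scores, were named after their values were seen. The alternatives were gaps of 0 or 250 bp, widths of 2500 or 4000 bp, the start inside the region, autosomes only, the most downstream start, no other gene start in the region, the higher-scoring 50% of peaks, the midpoint of a Pax5 peak, and regions of 2000 to 3000 bp as the only comparison. The width at 1 narrower list member was left out of the text.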

Additional observations from a re-analysis of the deposited data

How the results depend on the processing

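Of 50 recomputed values for 7 results, 36 stayed within their 95% interval (or, for the number of regions, within 1.5 times) and none changed direction. The number of broad regions, 490, became 988 at a width of at least 2500 bp and 147 at 4000 bp. Most of the length lay downstream in 63.6% with the most downstream start, against 85.8%. At a width of at least 4000 bp, 86.4% of regions had at least 50% H3K27ac and 96.6% a Pax5 peak, while with the higher-scoring 50% of the Pax5 peaks 73.7% had one. The excess of broad over narrower starts with a Pax5 peak within 1000 bp, 23.5 percentage points, became 27.3 at 4000 bp, 18.9 with the start inside the region, 32.6 with the higher-scoring 50% of peaks, 17.3 with the midpoint of the peak and 0.206 against regions of 2000 to 3000 bp only. The excess in H3K27ac 1000 to 3000 bp downstream, 51.4 points, became 38.9 at 2500 bp, 65.6 at 4000 bp and 36.2 against regions of 2000 to 3000 bp only. The changes with width and with the comparison class follow from which regions enter; for the others the cause was not tested. No paired analysis was possible because H3K27ac, H3K4me3 and Pax5 have 1 library each, and for that reason none could be left out. Depth is unknown, so weak or absent regions may reflect depth or the calling threshold, which was not tested.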
